A study of Mus musculus with 24 samples.

Results

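The genes described here are the nuclear genes named as subunits of the mitochondrial oxidative phosphorylation machinery. They were taken from the table of gene counts by symbol: names that begin with Ndufa, Ndufb, Ndufc, Ndufs, Ndufv, Uqcr, Atp5 or Cox4 to Cox8, together with Sdha, Sdhb, Sdhc and Sdhd. Of 100 rows that matched the prefixes or names, 8 Ndufaf assembly factors and 3 pseudogene rows were dropped, which left 89 of 27179 genes. By name, 42 members belong to complex I, 4 to complex II, 8 to complex III, 18 to complex IV and 17 to complex V. The rule uses names alone and no threshold on a measured value. RefSeq lists 2 of the 42 complex I members, Ndufa11b and Ndufs6b, as pseudogenes and the other 87 members as protein-coding.

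The respiratory chain of the inner mitochondrial membrane passes electrons from NADH through complex I, and from succinate through complex II, to ubiquinone, complex III, cytochrome c and finally complex IV, which reduces oxygen. Complexes I, III and IV pump protons, and complex V, the ATP synthase, uses the proton gradient to make ATP. Apart from complex II, each complex also holds subunits made from mitochondrial DNA, so nuclear and mitochondrial transcripts have to be supplied together. Blood stem cells are known for their reliance on glycolysis and for raising mitochondrial respiration as they divide and differentiate.

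Poly(A) RNA was sequenced in 24 libraries from 8 mice, and each mouse gave 1 library of haematopoietic stem cells (HSC), 1 of multipotent progenitors (MPP) and 1 of a further sorted progenitor population labelled HPC-1. In 4 mice the X-linked gene Phf6, which encodes a chromatin-associated protein, was labelled as deleted, and in 4 control mice as intact. The mice came as 1 deleted and 1 control animal from each of 4 litters. The strain label of both groups is Phf6lox/Y;Tie2-creTg/+, a floxed allele in males with a Cre driven by Tie2, which is active in endothelium as well as in blood. The labels do not say whether control mice carried the Cre, and they give no age. Bone marrow was crushed, depleted of lineage-positive cells and sorted by cKIT and SCA1 together with CD48 and CD150. The libraries of HSC and MPP were amplified from little RNA with the SMART-Seq v4 kit, and HPC-1 libraries were made with a TruSeq Stranded kit, so levels in HPC-1 are described separately.

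Total counts were 9658167 to 27786830 per library. Phf6 was at 35.1 to 75.7 CPM (counts scaled to the library total) in the deleted HSC libraries and 177 to 230 in the control ones, at 48.1 to 65.6 CPM against 165 to 226 CPM in MPP, and at 22.8 to 35.4 CPM against 106 to 153 CPM in HPC-1. Every deleted library was thus below every control library of its population. Slamf1, which encodes the sort marker CD150, was lower in control MPP than in control HSC by a log2 difference of -5.16 ± 0.26 (SE), and Flt3, a progenitor receptor, was higher by 3.36 ± 0.21 (edgeR adjusted p under 0.05 for both). The stem cell markers Hlf and Procr did not follow the labels: they were higher in MPP, by 1.15 ± 0.17 and 0.81 ± 0.16. Of the 8 stem cell markers listed, 3 were called higher in MPP, the third being Ly6a (0.99 ± 0.14). Slamf1 was the 1 called lower, and 5 of the 8 were above 0 and 3 below. Because these are bulk samples, fewer cells of a type and less RNA per cell cannot be told apart.

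The members took 1.07% to 1.97% of all counts in the HSC and MPP libraries. A count was present in every library for 83 of the 89 members, 5 members stayed under 1 CPM in every group mean, and Cox8b alone had no count in any library. Genes are set beside each other below only as CPM per kilobase of the length given in the count table (CPM/kb), with mean ± SD over the 4 libraries of a group. In control HSC the highest complex I member was Ndufa4 at 898 ± 88.4 CPM/kb, a small subunit now assigned to complex IV although its name places it in complex I. Ndufb6, an accessory subunit of the complex I membrane arm, came second at 688 ± 108 CPM/kb. Among matrix-arm subunits, Ndufs7 was at 340 CPM/kb, Ndufv2 at 266, Ndufs8 at 222, Ndufv1 at 108, Ndufs3 at 48.8 and Ndufs1 at 48.0. These subunits of 1 complex were therefore not present as equal amounts of transcript.

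In complex II, the iron-sulfur subunit Sdhb (230 ± 6.67 CPM/kb) and the flavoprotein Sdha (223 ± 13.2) lay side by side in control HSC, with means closer than the SD of Sdha. The membrane anchors were lower, Sdhc at 75.4 CPM/kb and Sdhd at 7.99 ± 2.06. In complex III, Uqcrb was highest at 498 ± 29.6 CPM/kb, followed by Uqcr10 at 392 ± 112, and the core subunits stood at 316 (Uqcrc1), 80.4 (Uqcrc2) and 90.4 (the Rieske protein Uqcrfs1). In complex V, the coupling factor Atp5j reached 742 ± 75.7 CPM/kb and the catalytic beta subunit Atp5b 607 ± 55.3. The alpha subunit Atp5a1 was at 397 CPM/kb, the gamma subunit Atp5c1 at 221 and the stalk subunit Atp5o at 194. Length-scaled levels of members of 1 complex were far apart.

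Some low values fall on genes with near-identical copies elsewhere. Of the 80-base stretches of the Atp5l transcript, 74.6% also occur in a transcript of another gene, and the shares were 49.8% for Atp5g1, 44.8% for Ndufa12, 43.8% for Cox7c and 30.5% for Ndufs5. How the counting treated reads that match several places is not given in the sources used here, so the levels of these members are uncertain. Uqcr11 had between 0 and 0.185 CPM in every library although 1.91% of its stretches are shared, and Sdhd was low with none shared.

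Several subunits exist as isoforms encoded by separate genes, of which one is used broadly and the others in heart, muscle, lung, testis or under low oxygen. In control HSC, Cox4i1 stood at 459 ± 74.0 CPM/kb and its low-oxygen and lung partner Cox4i2 at 3.89 ± 1.85. The same contrast held for Ndufa4 against Ndufa4l2 (0.60 ± 0.32 CPM/kb). Cox7a2 was at 30.7 ± 5.06 CPM/kb, the muscle form Cox7a1 at 2.12 ± 1.23, and Cox7a2l, a relative that helps to join complexes III and IV, at 57.5 ± 6.70. Cox7b was at 269 CPM/kb and Cox8a at 463 ± 94.1, whereas Cox7b2 and Cox8c were at 0 in every control library of the 3 populations. The 3 genes for the c-ring subunit of ATP synthase, whose mature proteins are the same, were ordered Atp5g3 (598 ± 47.8 CPM/kb), Atp5g1 (66.0 ± 14.2) and Atp5g2 (4.47 ± 1.68), with the caution that Atp5g1 and Atp5g2 share long stretches with other genes.

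Cox6a2, the heart and muscle form of subunit 6a, was listed at 0 CPM in all 8 control HSC and MPP libraries. Its HPC-1 libraries held 5.51, 2.98, 1.40 and 4.08 CPM in the control mice and 5.19, 3.12, 2.30 and 4.12 CPM in the deleted ones, litters in order. Control and deleted HPC-1 libraries overlapped fully, and because the kit differs, HPC-1 cannot be compared with the other populations here.

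**Figure D1:**
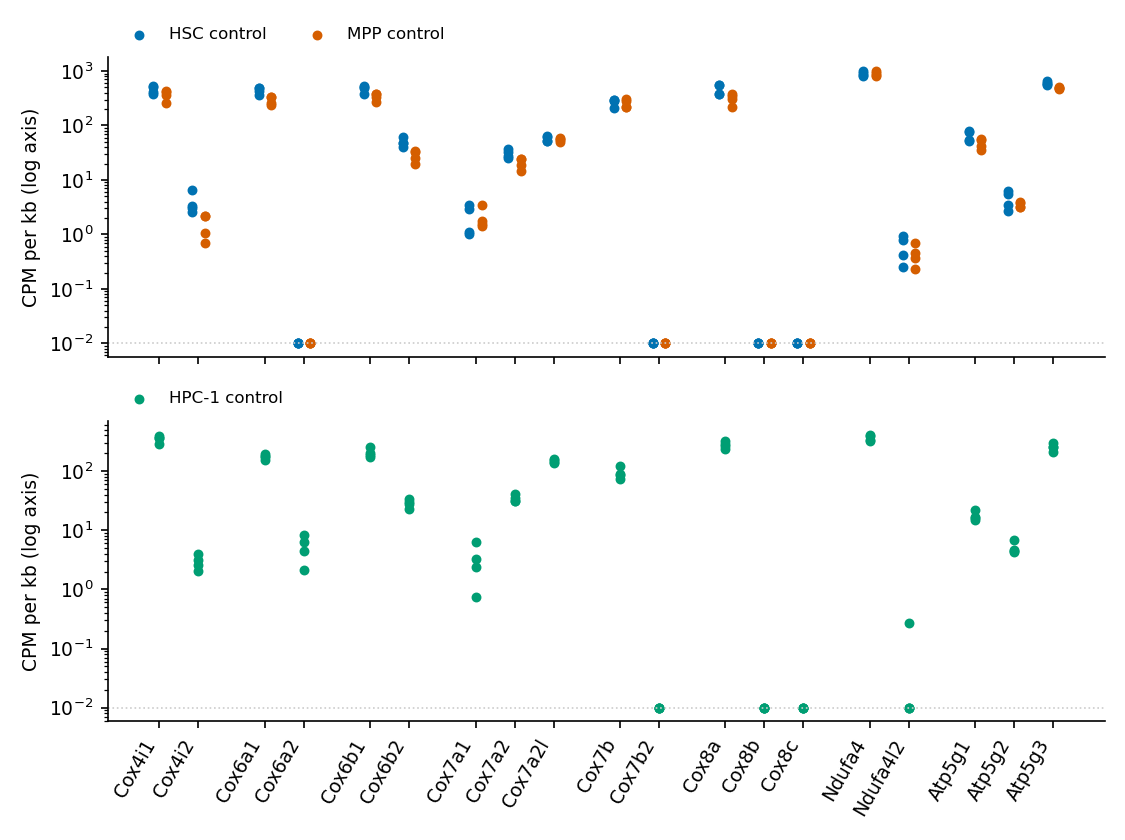
Level of each member of 8 isoform families (CPM/kb, log axis), 1 point per control library, with HSC and MPP in the upper panel and HPC-1 alone in the lower one. Libraries with no count are drawn on the dotted line at the bottom; Atp5g3 lay above Atp5g1 and Atp5g2 in every library shown, and Cox6a2 had counts in the HPC-1 controls only.

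Members differed in how steady they were. The SD of log2 CPM within a group, averaged over the 6 groups, was small for Atp5a1 (0.13) and Sdha (0.13), and largest for Ndufb4 (0.81), Ndufa4l2 (0.67) and Cox7a1 (0.66). Atp5a1 and Sdha encode a core subunit each of complexes V and II. Ndufa4l2 and Cox7a1 had few counts. For Ndufb4, 33.9% of stretches were also found in other genes. Larger shares went with a smaller averaged SD in Atp5l (74.6%, SD 0.46), Atp5g1 (49.8%, 0.31) and Ndufa12 (44.8%, 0.30). By group, the SD of Ndufb4 was largest in control HPC-1 (1.53), deleted HSC (1.09) and deleted MPP (1.04). In the other groups it was 0.33 to 0.46. The part of low counts or shared stretches in the spread was not tested.

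The deleted HSC and MPP libraries were more spread than the control ones. The median SD of log2 CPM over members was 0.24 in control HSC and 0.53 in deleted HSC, against 0.32 and 0.47 over all genes. In MPP it was 0.23 in controls and 0.39 in deleted mice, against 0.28 and 0.49 over all genes. In HPC-1 it was 0.19 and 0.17, against 0.25 and 0.23. Of these, 3 libraries stood apart, by the median over members of the deviation in log2 CPM from each member's mean over the 16 HSC and MPP libraries. The deleted HSC library of litter 3 was at 0.64, with 80 of 85 members above their mean, and that of litter 4 at -0.58, with 5 above. The deleted MPP library of litter 3 was at 0.39, and its members were widely scattered, with an interquartile range of 1.05. The other 13 libraries lay between -0.34 and 0.30. Within groups of 4 libraries, the Dixon gap criterion (0.829) set no library apart by this median. These 3 libraries were singled out after their values were seen, and group medians are given below with and without them. Without them the members' median SD was 0.17 over the remaining 2 deleted HSC libraries and 0.19 over the remaining 3 deleted MPP libraries. Over all genes it was 0.28 in both. Because the libraries were chosen by the members' own deviations, a smaller SD of the members without them was built in. The members' medians and counts without them are affected by the same choice, and no conclusion is drawn from any of these values.

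In the deleted MPP library of litter 3 the 10 most abundant genes took 9.34% of counts, where the other libraries of the series gave 2.95% to 5.08%. Its transcripts encoded by mitochondrial DNA deviated by 1.57, those of the deleted HSC library of litter 3 by -1.15 and those of litter 4 by -0.16. Nuclear and mitochondrially encoded subunits thus stood on opposite sides of their means in the deleted HSC library of litter 3. The genes detected numbered 14212 in that library and 14710 in the deleted MPP library of litter 3, the smallest numbers of the 16. The neutrophil and monocyte markers, a list of 12 genes, summed to 1744 to 14715 CPM in deleted MPP and 589 to 3290 in control MPP, none at 0, and in HSC to 2012 to 11862 and 1090 to 8151. The part of these differences in the members' levels was not tested.

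**Figure D2:**
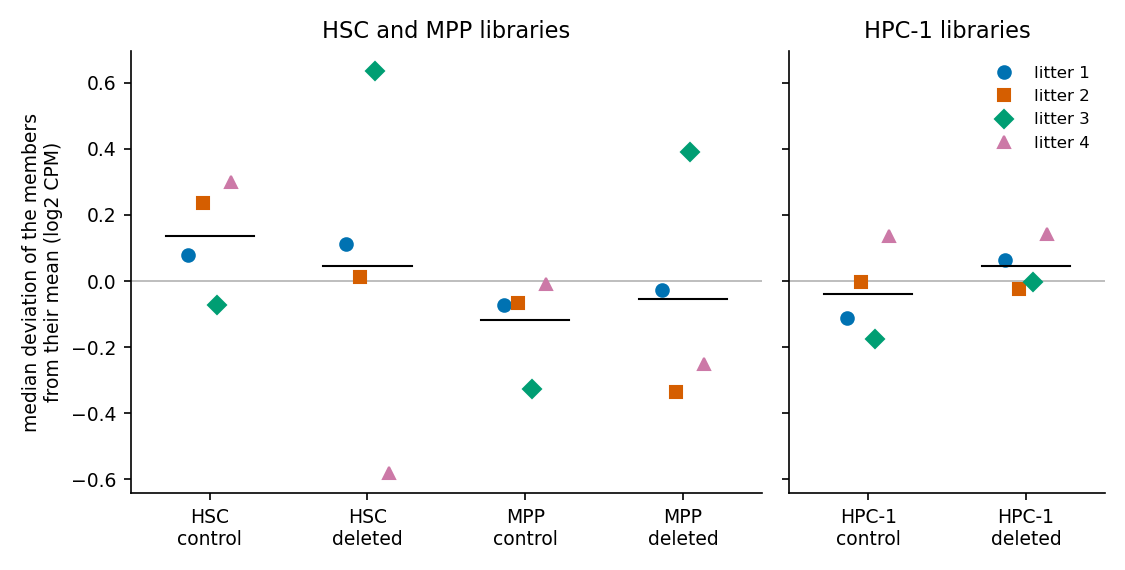
Median over the members of the deviation in log2 CPM from each member's mean, 1 point per library with the litter by colour and shape, over the 16 HSC and MPP libraries (left) and the 8 HPC-1 libraries (right). Black lines are group means; the deleted HSC libraries of litters 3 and 4 are at 0.64 and -0.58, and the HPC-1 libraries stay between -0.17 and 0.14.

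The first question was whether loss of Phf6 changed these genes within a population. In HSC, none of the 82 members tested passed an adjusted p of 0.05 in edgeR's quasi-likelihood test, against 0.0% of all genes called higher and 0.0073% lower. At an unadjusted p under 0.05 the count was also 0 of 82, where 2.37% of all genes were higher and 1.49% lower. DESeq2 and limma-voom called 0, and so did the fit with litter as a block, which had 0 members at an unadjusted p under 0.05 beside 1.7% of genes higher and 1.76% lower. The median log2 difference of the members, deleted minus control, was -0.03, with 34 above 0 and 48 below, beside 0.01 over all genes. Its direction depended on single libraries: without the deleted library of litter 3 it was -0.24, without that of litter 4 it was 0.12, and without both -0.06, with 0 members called each time. Without the control library of litter 4 it was 0.02.

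Members nearest to a difference in HSC were named by their unadjusted p. Ndufs1, the largest electron-carrying subunit of complex I, was at 163, 131, 157 and 111 CPM in controls, litters in order, and at 163, 169, 171 and 166 CPM in the deleted mice. The deleted libraries were nearly level, and on the scaling of all 24 libraries the 2 groups met only at litter 1. The difference was 0.25 ± 0.16 (SE, adjusted p = 0.998 in edgeR). It was the only member of 82 whose groups did not overlap upward on the scaling of that comparison, where 1.56% of genes showed this. Ndufb4 (0.68 ± 0.45) and Ndufs4 (0.23 ± 0.17) followed, and the lowest p among members below 0 belonged to Cox8a (-0.33 ± 0.27), Atp5l (-0.33 ± 0.35) and Ndufs6 (-0.27 ± 0.31), all with adjusted p = 0.998. By complex the medians were 0.02 for I, 0.05 for II, -0.02 for III, -0.14 for IV and -0.07 for V.

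Litters differed in direction and in how evenly the members split. The median over 85 members of deleted minus control was 0.03 in litter 1, -0.22 in litter 2, 0.71 in litter 3 and -0.91 in litter 4 for HSC. In litter 1, 47 members were above 0 and 37 below, in litter 3, 79 of 85 were above, and in litter 4, 82 were below. Complex II departed less than the rest in both, with medians of 0.20 and -0.21 where complex I had 0.79 and -0.95. Mitochondrial ribosomal protein genes, which make the machinery that translates the mitochondrially encoded subunits, had medians of 0.64 and -0.54 in the same litters.

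**Figure D3:**
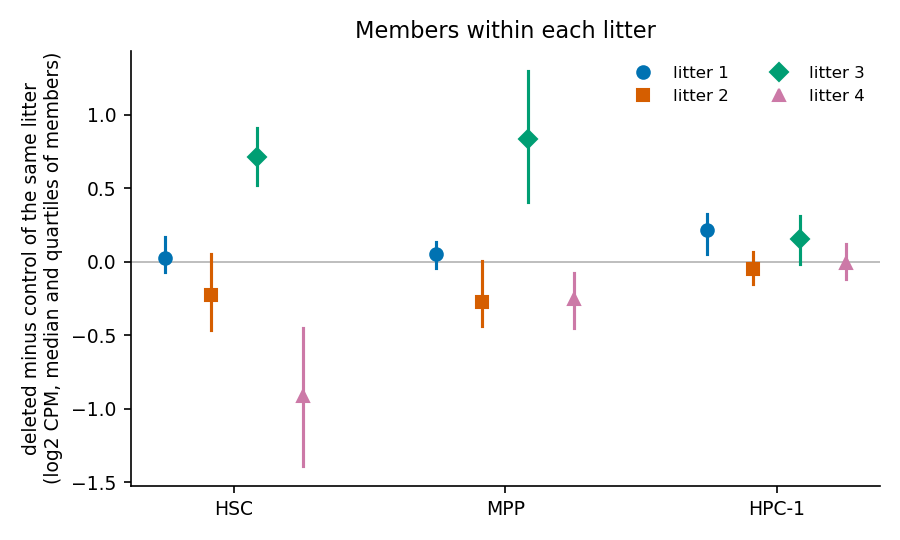
Deleted minus control within each litter (log2 CPM) for HSC, MPP and HPC-1, with the median over 85 members as a point and the quartiles as a line. Litters 3 and 4 of HSC lie at 0.71 and -0.91, and no HPC-1 litter is beyond 0.22.

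In MPP, edgeR called 0 of 83 members, where 0.0217% of all genes were called higher and 0.00724% lower. No member reached an unadjusted p under 0.05 in edgeR, beside 5.71% of genes higher and 2.38% lower. Limma-voom also called 0, and DESeq2 called 0 with 2 members higher at an unadjusted p under 0.05. The share over all genes is not given for that DESeq2 count. The fit with litter as a block called 0 as well and had 0 members at an unadjusted p under 0.05, beside 5.16% of genes higher and 3.48% lower. Groups of control and deleted libraries overlapped for every member tested, where 2.87% of genes were without overlap upward and 2.9% downward. The median was 0.06, with 49 members above 0 and 34 below, beside 0.02 over all genes. It turned to -0.05 when only library totals were used for scaling, which shifted the median of all genes to -0.07. It was -0.10 without the deleted library of litter 3 and -0.02 without the control library of litter 3.

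Cox7a2l had the lowest unadjusted p among members above 0 in MPP. It was at 68.7, 66.3, 57.3 and 63.4 CPM in controls and at 94.3, 59.7, 161 and 74.3 CPM in deleted mice. The library of litter 3 was far above the rest, and that of litter 2 lay inside the control range. The difference was 0.59 ± 0.27 (SE, adjusted p = 0.617 in edgeR). Ndufb6 was at 299, 241, 263 and 324 CPM in controls and 333, 337, 884 and 289 CPM in deleted mice, again highest in litter 3 (0.69 ± 0.33, adjusted p = 0.617 in edgeR). Atp5g3 likewise ran from 324 to 346 CPM in controls and reached 1020 CPM in the deleted mouse of litter 3 (0.64 ± 0.33, adjusted p = 0.631 in edgeR). Without that library the differences were 0.25 ± 0.17 for Cox7a2l, 0.18 ± 0.14 for Ndufb6 and 0.10 ± 0.13 for Atp5g3. Below 0, the members with the lowest p were Uqcrc1, a core subunit of complex III (-0.28 ± 0.22), Ndufa10 (-0.19 ± 0.17) and Ndufv1, the subunit that binds NADH (-0.26 ± 0.23). The litter medians were 0.05, -0.28, 0.84 and -0.25. All 4 complex II genes had values below 0, between -0.22 and -0.05.

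In HPC-1, edgeR called 0 of 84 members, where 0.0288% of all genes were called higher and 0.036% lower, and no member reached an unadjusted p under 0.05, beside 2.27% of genes higher and 2.72% lower. DESeq2 and limma-voom called 0, and the fit with litter as a block called 0, with 2 members higher and 1 lower at an unadjusted p under 0.05, beside 3.98% of genes in each direction. The median was 0.07, with 64 members above 0 and 20 below, whereas 49.3% of all genes tested were above 0. Leaving out 1 library at a time kept the median between 0.02 and 0.15. The litter medians were 0.22, -0.05, 0.15 and -0.01, so the small shift of the group came from litters 1 and 3. Deleted exceeded control in all 4 litters for 8 of 85 members, among them Cox4i1, Ndufa10 and Sdhd, where 7.85% of all genes did so.

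Ndufab1, the mitochondrial acyl carrier protein that is also a complex I subunit, had the lowest unadjusted p in HPC-1. It was at 11.3, 10.9, 15.8 and 11.7 CPM in controls and at 9.26, 9.59, 10.3 and 5.94 CPM in deleted mice. Every deleted library was below every control library, as for 2.08% of all genes, and no other member showed this downward; 0 did so upward, beside 1.58% of genes. The difference was -0.50 ± 0.24 (SE, adjusted p = 0.988 in edgeR), and 32.4% of the transcript's 80-base stretches occur in other genes. Ndufa5 (-0.27 ± 0.17) and Cox6b2 (-0.32 ± 0.22) came next below 0, and Cox7a2l (0.18 ± 0.09), Ndufa9 (0.18 ± 0.10) and Ndufb8 (0.16 ± 0.10) above it, all with adjusted p over 0.99 in edgeR.

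Differences of the deletion effect from population to population were tested as interactions. HPC-1 libraries were made with another kit, so in the tests with HPC-1 the population and the kit cannot be told apart. The 3 tests called 0 of 84 members each in edgeR, where 0.0% of all genes were called in either direction, and DESeq2, limma-voom and the fits with mouse as a block also called 0 members. At an unadjusted p under 0.05, edgeR had 0 members for MPP minus HSC, 0 for HPC-1 minus HSC and 1, Cox6a2, for HPC-1 minus MPP, a gene near 0 in MPP; of all genes 1.92% were higher and 0.948% lower in the first test, 1.7% and 1.76% in the second, and 1.39% and 3.09% in the third. The mouse block had 3 members higher in the first test at an unadjusted p under 0.05 (2.18% of genes) and 0 in the others. The medians were 0.19, 0.09 and -0.03. The first became -0.04 without the 3 libraries that stood apart and 0.06 with library totals alone. The second was -0.06 without the deleted HSC library of litter 4. The third turned to 0.11 with library totals and 0.03 with the mouse block.

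The second question was how MPP differed from HSC of the same mice. In control mice the members were mostly lower in MPP: 76 of 82 had a log2 difference, MPP minus HSC, below 0, where 50.8% of all genes did, and the median was -0.26 beside -0.01 over all genes. The complex IV subunits that passed the threshold were Cox6a1, Cox6b1 and Cox6b2, all lower in MPP. That is 3 of 82, beside 4.78% of all genes called lower, and 0 were called higher, beside 4.06%. At an unadjusted p under 0.05 there were 30 lower and 0 higher, beside 11.3% and 10.6% of genes. With mouse as a block, as the design pairs the libraries, 29 of 82 were called lower and 0 higher, where 8.07% and 7.39% of all genes were. At an unadjusted p under 0.05 that fit had 46 lower, beside 14.6% of genes lower and 14.7% higher.

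Complex IV held the lowest median, -0.49, with 13 of 13 members below 0. Complex V followed with -0.33 and 17 of 17, then complex I with -0.22 and 37 of 41, complex III with -0.17 and 7 of 7, and complex II with -0.03 and 2 of 4. The 29 calls with the mouse block were 10 in complex V, 9 in complex I, 7 in complex IV and 3 in complex III, and none in complex II. The differences between complexes were not tested.

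**Figure D4:**
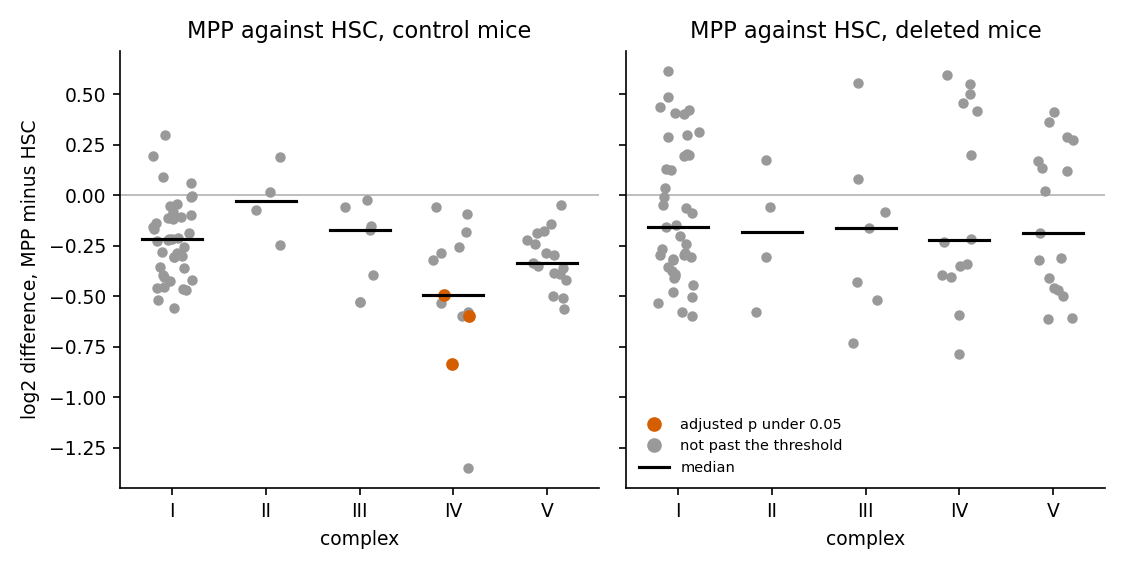
Log2 difference of each member, MPP minus HSC, by complex in control mice (left) and deleted mice (right), from the fits without a block. Orange points passed an adjusted p of 0.05 and black lines are medians; in controls complex IV has the lowest median, -0.49, and in deleted mice the points spread from -0.78 to 0.62 with none past the threshold.

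Cox6a1 encodes subunit 6a of cytochrome c oxidase, which regulates the enzyme's activity. In HSC of the control mice, litters in order, it was at 227, 257, 195 and 257 CPM, and in MPP of the same mice it was at 140, 175, 128 and 180 CPM. Every MPP library lay below every HSC library. The difference was -0.60 ± 0.15 (SE, adjusted p = 0.0209 in edgeR), and with mouse as a block -0.61 ± 0.08 (adjusted p = 0.00127).

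Cox6b1 encodes the subunit that faces the intermembrane space and helps the enzyme to form dimers. It was at 244, 252, 194 and 265 CPM in control HSC and at 165, 189, 139 and 189 CPM in control MPP. The groups did not overlap, although the HSC value of litter 3 came close to the highest MPP values. The difference was -0.49 ± 0.14 (SE, adjusted p = 0.0453 in edgeR) and -0.50 ± 0.08 with the block (adjusted p = 0.00289).

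Cox6b2, known as the testis form of that subunit, was far lower in level: 49.3 CPM/kb in control HSC beside 472 ± 61.5 CPM/kb for Cox6b1. It was at 36.4, 29.2, 24.2 and 29.3 CPM in control HSC and at 15.2, 20.1, 11.7 and 20.2 CPM in control MPP. The groups did not overlap and the difference was -0.84 ± 0.22 (SE, adjusted p = 0.0296 in edgeR), or -0.86 ± 0.18 with the block (adjusted p = 0.0138). Both isoforms of subunit 6b were thus lower in MPP.

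The calls without the block did not hold in every fit that left out 1 library. In the 8 such fits, Cox6a1 passed in 4, Cox6b2 in 3 and Cox6b1 in 1. Their log2 differences in these fits were -0.67 to -0.50 for Cox6a1, -0.93 to -0.69 for Cox6b2 and -0.58 to -0.40 for Cox6b1. The number of members called lower was 0 without the MPP library of litter 1 or 3 or the HSC library of litter 2 or 4, 1 without the HSC library of litter 1, 2 without the MPP library of litter 2 or 4, and 6 without the HSC library of litter 3. Shares over all genes are not given for the fits that leave out a library or a mouse. With the block, leaving out 1 mouse gave 25, 7, 12 and 13 calls for litters 1 to 4. Cox6a1, Cox6b1, Cox8a, Cox5b and Uqcrq were called in all 4 of those fits. Atp5d, Atp5h and Cox7a2 were called in 0 of them, and Atp5g1, Atp5g3, Atp5o, Cox4i1 and Uqcrh in 1.

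The sequences before the transcription starts of these 3 genes are shown because the members lie together in direction and 2 of them hold letters of factors known to serve respiratory genes. Each run is the 250 bases before the start in RefSeq on GRCm38.p6, 5′ to 3′ on the gene's strand, with motifs in capitals. The first run of capitals in Cox6a1, 10 bases long and the same on both strands, is the NRF1 motif, and CTTCCGG is the ETS family motif bound by NRF2, CCGGAAG, on the opposite strand. All 3 genes lie on the minus strand, Cox6a1 at chr5:115348959-115349208, Cox6b1 at chr7:30626115-30626364 and Cox6b2 at chr7:4753095-4753344.
Cox6a1: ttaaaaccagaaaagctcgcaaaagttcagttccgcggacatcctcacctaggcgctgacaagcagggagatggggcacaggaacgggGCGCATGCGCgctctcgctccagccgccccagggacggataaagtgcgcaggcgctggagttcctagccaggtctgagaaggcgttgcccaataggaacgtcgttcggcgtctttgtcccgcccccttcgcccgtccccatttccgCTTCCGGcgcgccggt
Cox6b1: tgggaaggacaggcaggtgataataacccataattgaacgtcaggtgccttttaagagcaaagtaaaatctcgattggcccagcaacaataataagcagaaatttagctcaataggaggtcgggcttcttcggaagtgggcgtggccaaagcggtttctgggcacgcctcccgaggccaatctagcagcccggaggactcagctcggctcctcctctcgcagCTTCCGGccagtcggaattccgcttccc
Cox6b2: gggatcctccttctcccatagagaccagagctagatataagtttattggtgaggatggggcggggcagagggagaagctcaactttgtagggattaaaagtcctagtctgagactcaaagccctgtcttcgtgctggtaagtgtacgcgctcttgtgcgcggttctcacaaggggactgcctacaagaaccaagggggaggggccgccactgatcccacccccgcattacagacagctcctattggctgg

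In Cox6a1 the NRF1 letters begin 162 bases before the start and the ETS letters 16 bases before it. Cox6b1 has the ETS letters 28 bases before the start, and Cox6b2 has neither in this window, nor AAGATGGC, the YY1 motif. Over both strands of windows of 300 bases (250 before to 50 after the start), 75 windows of 70 members were found in the table. NRF1 letters occurred in 6.67% of them and in 0.971% of all 32851 windows, ETS letters in 22.7% and 8.86%, and YY1 letters in 13.3% and 2.75%. The TATA letters TATAAA were in 12.0% and 13.6%. Member windows also had more GC, with a median of 57.3% against 52.7%. A match is a description of letters and no evidence of binding.

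Beyond the 3 called members, Cox8a, a small subunit needed for a stable enzyme, was next (-0.58 ± 0.18, adjusted p = 0.0756 in edgeR, 0.0033 with the block). It was at 211, 296, 205 and 298 CPM in control HSC and 165, 204, 120 and 192 CPM in control MPP, just without overlap. Cox5b (-0.53 ± 0.18), Cox7a2 (-0.60 ± 0.22) and Cox4i1 (-0.32 ± 0.17) were called with the block only, with adjusted p of 0.00558, 0.0389 and 0.0384 there (edgeR), and Cox5a (-0.26 ± 0.11), Cox7b (-0.09 ± 0.15) and Cox7a2l (-0.06 ± 0.14) in neither fit. Cox4i2 gave the lowest difference of all members, -1.35 ± 0.57, at 1.85 to 4.81 CPM in HSC and 0.51 to 1.59 CPM in MPP, and it did not pass (adjusted p = 0.184 in edgeR).

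In complex V, the epsilon subunit Atp5e (-0.56 ± 0.24), the membrane subunit Atp5k (-0.51 ± 0.20) and the c-ring gene Atp5g1 (-0.50 ± 0.20) were called with the block only, as were Atp5g3 (-0.30 ± 0.11) and Atp5o (-0.36 ± 0.15). The catalytic Atp5b, at 1083, 1284, 1048 and 1150 CPM in control HSC and 1019, 1052, 819 and 998 CPM in control MPP, was called in neither fit (-0.24 ± 0.12), nor were Atp5a1 (-0.18 ± 0.11), Atp5c1 (-0.22 ± 0.13) and Atp5g2 (-0.33 ± 0.45). The alpha, beta and gamma subunits were thus not among the calls with the block, though Atp5b was lower in MPP in all 4 control mice. Atp5d was called with the block, as was Atp5e, but in 0 of the fits with the block that left out 1 mouse. Differences between called and uncalled subunits were not tested.

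In complex I, the electron-carrying Ndufs7 (-0.40 ± 0.15) was called with the block, while Ndufv1 (-0.30 ± 0.14), Ndufs8 (-0.28 ± 0.14), Ndufv2 (-0.22 ± 0.13), Ndufs3 (-0.01 ± 0.16) and Ndufs1 (0.06 ± 0.14) were called in neither fit. Accessory subunits called with the block included Ndufb7 (-0.44 ± 0.10 in that fit) and Ndufv3 (-0.44 ± 0.10). In complex III, Uqcrq (-0.53 ± 0.20), Uqcr10 (-0.53 ± 0.22) and Uqcrh were called with the block, and the core subunits Uqcrc1 (-0.15 ± 0.14), Uqcrc2 (-0.02 ± 0.12) and Uqcrfs1 (-0.17 ± 0.13) were not. Ndufa4, the member with the most transcript per length, did not pass either (-0.00 ± 0.12).

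Succinate dehydrogenase, which also serves the citric acid cycle, gave Sdha 0.02 ± 0.11, Sdhb -0.07 ± 0.11, Sdhc 0.19 ± 0.14 and Sdhd -0.24 ± 0.27, all past no threshold in either fit. Sdha was at 626, 615, 695 and 620 CPM in control HSC and 663, 643, 694 and 601 CPM in control MPP, so the groups overlapped. Sdhc, Ndufb4 (0.30 ± 0.27) and Ndufab1 (0.20 ± 0.22) had the lowest unadjusted p among members above 0. The 3 members on the X chromosome, which also carries Phf6, were Ndufa1 (-0.21 ± 0.11), Ndufb11 (-0.17 ± 0.15) and Cox7b, and none passed.

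Counted mouse by mouse, 47 of 85 members were lower in MPP than in HSC in all 4 control mice, where 16.9% of all genes were. The litter medians were -0.14, -0.31, -0.28 and -0.25. The libraries of MPP and HSC did not overlap, with MPP lower, for 14 of 82 members, where 8.15% of all genes showed this, and 0 members did so with MPP higher, beside 7.45%.

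**Figure D5:**
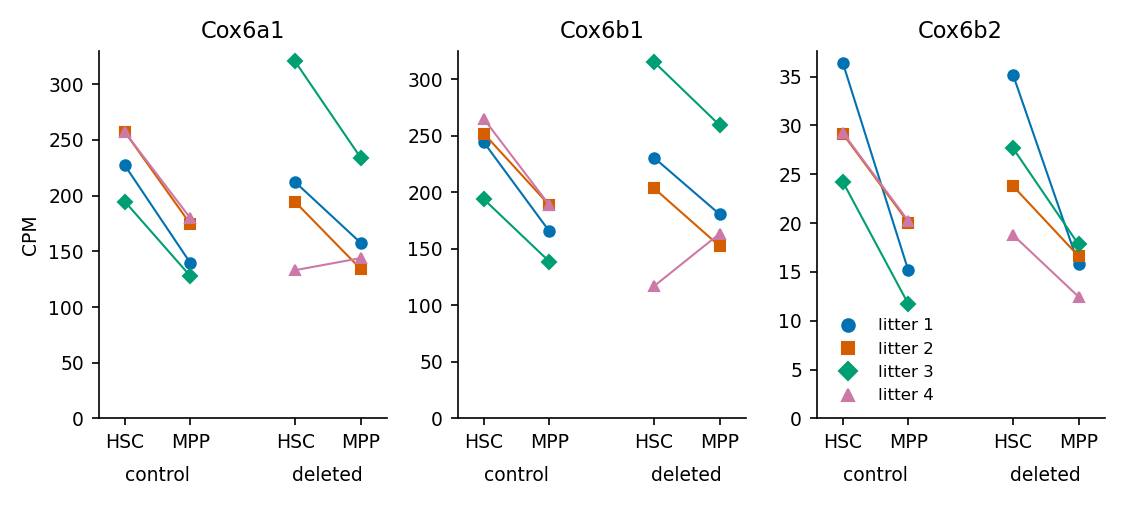
CPM of Cox6a1, Cox6b1 and Cox6b2 in HSC and MPP, with a line joining the 2 libraries of 1 mouse and the litter by colour and shape, for control and deleted mice. All control lines fall. Among deleted mice litter 4 rises for Cox6a1 and Cox6b1, from 133 to 144 CPM and from 117 to 163 CPM. Its deleted HSC library is among those that stood apart.

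Other gene groups were counted in the same comparison of control mice. Of 13 proteins encoded by mitochondrial DNA, which complete complexes I, III, IV and V, 12 were below 0 with a median of -0.40, 0 were called and 3 with the block. Of 46 assembly factors tested, 0 were called (median -0.04) and 1 with the block. Of 17 electron carriers and quinone synthesis genes, Etfb, a subunit of the electron transfer flavoprotein, was called lower (-0.69 ± 0.15), and of 13 citric acid cycle genes the fumarase gene Fh1 (-0.42 ± 0.12). Of 18 regulators of mitochondrial gene expression, Gabpb1, a subunit of NRF2, was called higher (0.43 ± 0.12). Assembly factors thus did not share the low median of the subunits they help to build.

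Gene groups outside respiration were counted too. Of 77 mitochondrial ribosomal protein genes, 65 were below 0 with a median of -0.23 (0 called, 10 with the block). Of 83 cytosolic ribosomal protein genes, 76 were below 0 with a median of -0.30, and 5 were called lower (20 with the block). Of 12 proliferation markers, 11 were called lower with a median of -0.69, and their summed level was 3487 to 4074 CPM in control HSC and 2389 to 2537 CPM in control MPP, none at 0. Neutrophil and monocyte genes, 12 of 12 below 0, had a median of -0.89 with 0 called and 6 with the block, and their sums, 1090 to 8151 CPM and 589 to 3290 CPM, overlapped. Megakaryocyte markers, 4 of 5 called lower, summed to 769 to 1228 CPM in HSC and 104 to 131 CPM in MPP, none at 0. Their part in the members' differences was not tested.

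In deleted mice, 0 of 83 members were called in MPP against HSC by edgeR, DESeq2, limma-voom or the fit with mouse as a block, where edgeR called 0.641% of all genes higher and 0.771% lower (0.835% and 1.27% with the block). At an unadjusted p under 0.05 edgeR had 3 members lower and 0 higher, beside 6.75% and 7.6% of genes, and with the block also 3 and 0, beside 8.03% and 8.81%. The median was -0.19 with 51 members below 0 and 32 above. Without the 3 libraries that stood apart it was -0.30, with 76 below and 7 above, 18 members lower and 0 higher at an unadjusted p under 0.05, beside 8.91% of all genes lower and 11.6% higher. Still 0 members were called, among 115 genes lower and 198 higher, and there the groups hold 2 and 3 libraries. The 3 libraries were left out for the members' own deviations, and the genes as a whole were not selected in that way. The members' count and split without them are thus partly built in, and no conclusion is drawn from them. Single libraries left out of the full comparison moved the members' median from -0.33 to 0.02. The litter medians were -0.17, -0.35, -0.15 and 0.26, so 3 of 4 deleted mice had a median below 0, and litter 4 had 74 of 85 members above 0. In litter 4 both libraries lay below the members' means, HSC, which stood apart, at -0.58 and MPP at -0.25.

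The 3 members with an unadjusted p under 0.05 were Ndufs7, Cox6b2 and Ndufa10. Ndufs7 was at 251, 207, 355 and 251 CPM in deleted HSC and 175, 164, 182 and 199 CPM in deleted MPP, without overlap (-0.60 ± 0.20, adjusted p = 0.194 in edgeR). Cox6b2 was at 35.2, 23.8, 27.7 and 18.8 CPM in deleted HSC and 15.8, 16.6, 17.8 and 12.5 CPM in deleted MPP (-0.78 ± 0.29, adjusted p = 0.229 in edgeR). With Atp5b these made 3 of 83 members that did not overlap, all with MPP lower, beside 6.15% of all genes lower and 5.57% higher. Above 0, Ndufa5 (0.62 ± 0.44), Cox7c (0.50 ± 0.37) and Cox7a2l (0.42 ± 0.34) had the lowest unadjusted p, and none passed.

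Cox6a1 gave 212, 194, 320 and 133 CPM in deleted HSC and 158, 134, 234 and 144 CPM in deleted MPP. MPP was lower in litters 1 to 3 and higher in litter 4. Over all 8 mice, MPP was below HSC in every mouse for 6 of 85 members, where 7.11% of all genes were: Atp5b, Atp5d, Atp5h, Cox4i1, Cox6b2 and Ndufs7. The 29 members called in controls with the block had a median of -0.44 in that fit, a value favoured by their selection as lower there. In deleted mice, without a block, their median was -0.35, and 25 of the 29 were below 0, where 51 of all 83 members were. Of the 29, 2 had an unadjusted p under 0.05 in edgeR, beside 6.75% of all genes lower. Proliferation markers had a median of -1.26 in deleted mice, with 12 of 12 below 0, 0 called and 6 with the block. Without the 3 libraries that stood apart their median was -1.05. Their summed level was 2923 to 4008 CPM in deleted HSC and 1191 to 2309 CPM in deleted MPP. Of the mitochondrially encoded genes, 12 of 13 were above 0 with a median of 0.66, none called. Their litter medians were -0.54, 1.12, 2.58 and -0.34, so litters 1 and 4 were below 0 like the controls, and without the 3 libraries the median was -0.15 with 10 of 13 below 0. Their part in the members' values was not tested.

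Members also differed by the GC content of their transcripts, which was known for at least 96.3% of the members tested. In MPP against HSC of controls, the log2 difference and GC content had a Pearson r of -0.49 (Spearman rho -0.54) over 79 members. Members under the median GC of 51.6% had a median difference of -0.19 and the others of -0.37. In deleted mice r was -0.64 over 80 members, with medians of 0.15 and -0.37. Without the 3 libraries that stood apart it was -0.10, with medians of -0.30 and -0.32. For the deletion effect r was -0.34 (HSC), -0.60 (MPP) or -0.05 (HPC-1), and in MPP the medians were 0.43 for members of lower GC and -0.09 for the others. Without the deleted library of litter 3, r in MPP was -0.21 and these medians were -0.02 and -0.13. Without the deleted libraries of litters 3 and 4, r in HSC was -0.57. These correlations are across genes measured in the same few libraries, which are not independent replicates. Library by library, deviation and GC were most strongly related in the deleted MPP of litter 3 (r of -0.62 over 82 members and -0.28 over 13533 genes), while HPC-1 libraries gave -0.13 to 0.09 over members. The part of GC content in the differences was not tested.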

How the data were processed

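The authors deposited raw counts for each gene; the submitters' processing notes name bcl2fastq, featureCounts and the build mm10. Sources used here do not give the aligner, annotation, versions or strand setting, and the SMART-Seq kit does not mark strand. The length per gene, another value in the same deposited table, served for CPM/kb. Entrez IDs were named from RefSeq (25275 of 27179, all 89 members). Each comparison was fitted on all genes with edgeR 4.0.16 (R 4.3.3): TMM scaling, filterByExpr (10 counts, 15 in total), robust quasi-likelihood test, Benjamini-Hochberg over all genes tested, threshold 0.05. SE is the difference divided by the root of F. Levels are CPM on TMM sizes of the 24 libraries, and deviations use log2 CPM with a prior count of 2. Alternatives were other size factors, no filter, DESeq2 1.42.0, limma-voom 3.58.1, the replicate block and single libraries left out. The script was tested on simulated counts.

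The replicate number pairs libraries by design: it is the litter within a population and the mouse between populations. Deviations of same-numbered libraries correlated weakly (HSC -0.01 to 0.06, MPP 0.03 to 0.13, HPC-1 0.05 to 0.31), and at 0.11 to 0.25 (controls) and 0.02 to 0.32 (deleted) between HSC and MPP. The highest correlation with another number was 0.02 to 0.06 (HSC), 0.04 to 0.08 (MPP) and -0.05 to 0.10 (HPC-1). Within each population it exceeded the same-number value in some litters. Between HSC and MPP it was -0.06 to 0.01 (controls) and -0.04 to 0.06 (deleted), below the same-number value in every mouse. All 36 pairs of same-group libraries differed by more than sampling noise (chi-square per degree of freedom 16.1 to 234). Totals were 9658167 to 27786830, so low members are the least precise. Members and lists were chosen with earlier results of these data known. Named members are the core subunits, isoform families, X-linked members, up to 12 called per direction (the 3 of lowest unadjusted p each way where fewer than 3 did), the highest and lowest of each complex per length, and the 3 most and least variable. Values of Ndufb7, Ndufv3, Uqcrh and other members beyond this rule, and the 3 libraries that stood apart, were chosen after the values were seen. Some values that this rule selects are not reported here.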

Additional observations from a re-analysis of the deposited data

Results flagged for a closer look

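In groups of 4 libraries, the highest or lowest value was set apart from the rest by the Dixon gap criterion (0.829) in 10 of 144 groups looked at, and chance alone gives about 1 in 20. The deleted MPP library of litter 3 was high for Atp5g3 (1020 CPM), Ndufb4 (68.4 CPM), Ndufb6 (884 CPM) and Uqcrb (907 CPM). The deleted HSC library of litter 3 was high for Uqcrc1 at 760 CPM. In control HSC, Ndufb6 was high in litter 1 (454 CPM) and Sdha in litter 3 (695 CPM). In control HPC-1, Ndufab1 was high in litter 3 at 15.8 CPM, and in control MPP the share of counts in complex V was low in litter 3 at 0.379%. Cox6a2 had 0.0486 CPM in the deleted HSC library of litter 2 and 0 in the other deleted HSC libraries, which is 1 gene near the counting limit.

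The rows dropped by the choice of members held counts too. Ndufs5-ps had 14398 counts over the 24 libraries, Atp5c1-ps 1923 and Uqcrh-ps1 804. Ndufs5-ps ran from 15.6 to 75.8 CPM, where the group means of the member Ndufs5 were 4.69 to 27.6 CPM. Atp5c1-ps stayed at 1.53 to 8.74 CPM beside 277 to 439 CPM for Atp5c1, and Uqcrh-ps1 at 0.155 to 4.81 CPM beside 108 to 145 CPM for Uqcrh.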

How the results depend on the processing

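In MPP against HSC of controls, 3 members were called lower, beside 4.78% of all genes. With mouse as a replicate block there were 29, beside 8.07% of all genes. DESeq2 gave 7, and leaving out 1 library gave 0 to 6. Leaving out 1 mouse in the fit with the block gave 25, 7, 12 and 13 for litters 1 to 4. RLE size factors and limma-voom gave 3, and library totals alone or no filter gave 2. Shares over all genes are not given for these other fits, so their counts show only how the calls moved. In the other 7 comparisons every alternative, the fits with a litter or mouse replicate block included, kept 0 members called in both directions. The replicate block changed no other count of called members. Among alternative medians over the members, 145 moved by less than the SD between libraries; the 2 others were 0.32 for HPC-1 minus HSC without the deleted HSC library of litter 3 and 0.16 for HPC-1 minus MPP without the deleted MPP library of litter 3. The mouse-by-mouse omissions in the fit with the block and the joint omission of 3 libraries were chosen after seeing the data. The cause of these changes was not tested. Few counts limit Cox4i2, Cox7a1, Ndufa4l2, Cox6a2 and Uqcr11.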
